A study of Rattus norvegicus with 9 samples.

Results

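The cluster from miR-379 to miR-410 is a run of microRNA (miRNA) genes in the imprinted Dlk1-Dio3 region of the rat genome, and its mature products were followed here in the hippocampus of rats given MK-801 or MK-801 and then clozapine. Members were taken by name, as every mature miRNA of the deposited table that carries a number of the cluster's hairpins, and 66 of the 633 listed miRNAs were members. All 66 listed sequences were identical to the RefSeq entry of the same name. All 66 lay between Dlk1 and Dio3 on chromosome 6 of the GRCr8 assembly, in 35 hairpins that span 36369 bases from miR-379-5p at chr6:134543460-134543480 to miR-410-3p at chr6:134579808-134579828. Of these hairpins, 33 lay on the plus strand and 2, Mir299b and Mir3581, on the minus strand. Small RNA from the hippocampus of Sprague-Dawley rats was sequenced in 9 libraries, 3 in each of 3 groups of 10 rats. VEH rats received saline for 14 days and for 7 days more; MK-801 rats received MK-801, a channel blocker of the NMDA glutamate receptor, at 0.2 mg/kg daily into the peritoneum for 14 days and then saline for 7 days. MK-801+CLO rats had that MK-801 course followed by 10 mg/kg, for 7 days, of what the group's name gives as clozapine, an antipsychotic drug. The sample labels give the age as postnatal day 21, whereas the protocol has treatment begin at 5 weeks; how many rats each library holds is not stated, so the p-values below measure only the spread between libraries.

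A miRNA is cut from a hairpin in a longer RNA, and either arm of the hairpin, 5p or 3p, can be loaded into an Argonaute protein, where bases 2 to 8, the seed, pair with target mRNAs. In placental mammals the hairpins of this cluster lie in a long non-coding RNA that is transcribed from the maternal chromosome only. In rat this can hold only for the plus-strand hairpins, and not for Mir299b and Mir3581 on the minus strand. The cluster is best known from brain. In neurons the transcription factor Mef2 drives its activity-dependent transcription, and miR-134, miR-329 and miR-381 are known for roles in the growth of dendrites and spines.

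The sequences of the 5 most abundant members and of miR-379-5p, the first of the cluster, are given from the deposited table, where they equal RefSeq, with the seed in capitals, 5′ to 3′. They show that the members that carry most of the reads have different seeds.
miR-379-5p: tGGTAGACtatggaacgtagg
miR-411-5p: tAGTAGACcgtatagcgtacg
miR-300-3p: tATGCAAGggcaagctctcttc
miR-541-5p: aAGGGATTctgatgttggtcacact
miR-409b: aGGGGTTCaccgagcaacattcg
miR-410-3p: aATATAACacagatggcctgt
Among the 66 members there were 61 distinct seeds. Only 9 members shared a seed with another member, in 4 groups. Those 9 follow, again with the seed in capitals.
miR-381-3p: tATACAAGggcaagctct
miR-539-3p: cATACAAGggtaatttcttttc
miR-376b-5p: gTGGATATtccttctatggtta
miR-376c-5p: gTGGATATtccttctatgttt
miR-299a-5p: tGGTTTACcgtcccacatacat
miR-299b-5p: cGGTTTACcgtcccacatac
miR-410-5p: aGGTTGTCtgtgatgagttcg
miR-494-5p: aGGTTGTCcgtgttgtcttctc
miR-496-5p: aGGTTGTCcatggtgtgttc
The miR-376 3p arms, whose seeds are a known site of A-to-I editing in brain, had similar sequences but 3 different seeds as listed.
miR-376a-3p: aTCGTAGAggaaaatccacgt
miR-376b-3p: aTCATAGAggaacatccactt
miR-376c-3p: aACATAGAggaaatttcacgt
A further 4 members shared a seed with a listed miRNA outside the cluster. They were miR-410-3p with miR-344b-1-3p, miR-377-5p with miR-672-5p, miR-329-3p with miR-362-3p and miR-1193-3p with miR-370-5p. The mean level of miR-344b-1-3p was 173.5 CPM (counts per 1000000 miRNA counts of the library) against 7720.3 CPM for miR-410-3p.

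Several members resemble each other closely enough that their counts depend on how reads were assigned (not given in the sources used here). miR-300-3p and miR-381-3p differ over the first 18 bases by the substitution G4A, from miR-300-3p to miR-381-3p with positions counted from 1 at the 5′ end, and miR-381-3p is listed with only those 18 bases. The level of miR-300-3p was 1306 CPM and that of miR-381-3p was 4.93 CPM, and the ratio of their counts lay between 222.6 and 338.4 in the 9 libraries. The 5p arms of miR-376b and miR-376c differ by 1 edit and had means of 164.7 and 0.13 CPM. In the same way miR-379-3p and miR-411-3p, 1 edit apart, had means of 101.9 and 11.5 CPM.

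The closest pair lies on opposite strands. miR-409b, from the minus-strand hairpin Mir3581, contains the whole reverse complement of miR-409a-3p, from the plus-strand hairpin Mir409, and both hairpins are printed from RefSeq (GRCr8) with the listed mature arms in capitals. Mir409 lies at chr6:134579185-134579261 on the plus strand and Mir3581 at chr6:134579184-134579263 on the minus strand.
Mir409: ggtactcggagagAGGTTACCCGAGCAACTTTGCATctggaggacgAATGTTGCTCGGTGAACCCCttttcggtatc
Mir3581: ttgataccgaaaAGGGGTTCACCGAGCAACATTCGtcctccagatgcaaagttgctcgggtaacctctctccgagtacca
reverse complement of miR-409b, with miR-409a-3p in capitals: cgAATGTTGCTCGGTGAACCCCt
The listed level of miR-409b was 1344 CPM, the fourth of the cluster, and that of miR-409a-3p was 17.7 CPM. Counts of miR-409b exceeded those of miR-409a-3p by a factor of 58.3 to 98.9 in every library. Use of strand in the counting was not given in those sources either, and without strand the reads of this pair cannot be told apart, so both values are uncertain. miR-299a-3p and the minus-strand miR-299b-5p are also reverse complements but for 1 edit. Their means were 7.66 and 0.04 CPM.

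Library totals ran from 10665718 to 18284905 miRNA counts, so that 10 CPM stands for 107 to 183 counts in a library and the limit that a count of 0 allows (3 counts) is 0.16 to 0.28 CPM. No pair of libraries of a group agreed within sampling noise. The filter on low counts kept 58 of the 66 members. The 8 left out were miR-299b-5p, miR-758-5p, miR-494-5p, miR-1193-5p, miR-376c-5p, miR-544-5p, miR-544-3p and miR-496-5p, each with a mean below 0.3 CPM. As a check of the tissue, the 5 listed neuronal markers, miR-124-3p among them, summed to 119667 to 147437 CPM. Every marker of the other cell types searched (oligodendrocytes, choroid plexus and ependyma, endothelium and smooth muscle, red blood cells, leukocytes and microglia) was also detected.

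The cluster made up 1.95% to 2.61% of the miRNA counts of a library. Its summed level was 20570.2, 26113.8 and 22693.4 CPM in the 3 VEH libraries, 23469.0, 24285.8 and 19492.5 CPM in the MK-801 libraries and 23151.6, 20254.1 and 21023.0 CPM in the MK-801+CLO libraries. The highest library was VEH replicate 2 and the lowest was MK-801 replicate 3, and the 3 groups overlapped. Group means were 23126 ± 2797 CPM in VEH, 22416 ± 2564 in MK-801 and 21476 ± 1501 in MK-801+CLO (SD, n = 3 each). In bulk tissue, fewer cells that make the cluster and less cluster RNA per cell cannot be told apart.

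A few members carried most of this sum. miR-410-3p had a mean of 7720.3 CPM and 34.6% of the cluster's counts, and was the 23rd most abundant miRNA of the table. miR-411-5p followed with 4361 CPM and 19.5%, then miR-541-5p with 2225 CPM, miR-409b with 1344 CPM and miR-300-3p with 1306 CPM. These 5 made up 75.9% of the cluster, and the 15 most abundant made up 91.9%. The other 10 of those 15 were miR-487b-3p (612 CPM), miR-323-3p (531), miR-369-5p (523), miR-382-5p (429), miR-380-3p (349), miR-369-3p (282), miR-496-3p (276), miR-379-5p (232), miR-495 (176) and miR-329-5p (170.0). At the other end, 11 members lay below 1 CPM and miR-299b-5p had at most 2 counts in a library.

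Level did not follow place in a simple way. The first member hairpin, Mir379, ranked 11th of 35 by the sum of its arms, its neighbour Mir411 ranked second, and the last, Mir410, ranked first. Summed in order, the first 12 hairpins (Mir379 to Mir543) gave 6114 CPM, the next 12 (Mir495 to Mir134) gave 3241 CPM and the last 11 (Mir668 to Mir410) gave 12980.0 CPM. Neighbours could differ by orders of magnitude: Mir299 gave 20.57 CPM beside 4372 CPM for Mir411. Mir299b, with 0.04 CPM, overlaps Mir299 on the minus strand. Its miR-299b-5p lies at chr6:134545106-134545125, over miR-299a-3p at chr6:134545107-134545127. Levels of mature miRNAs are given without a length term, since all members have 18 to 25 bases.

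**Figure D1:**
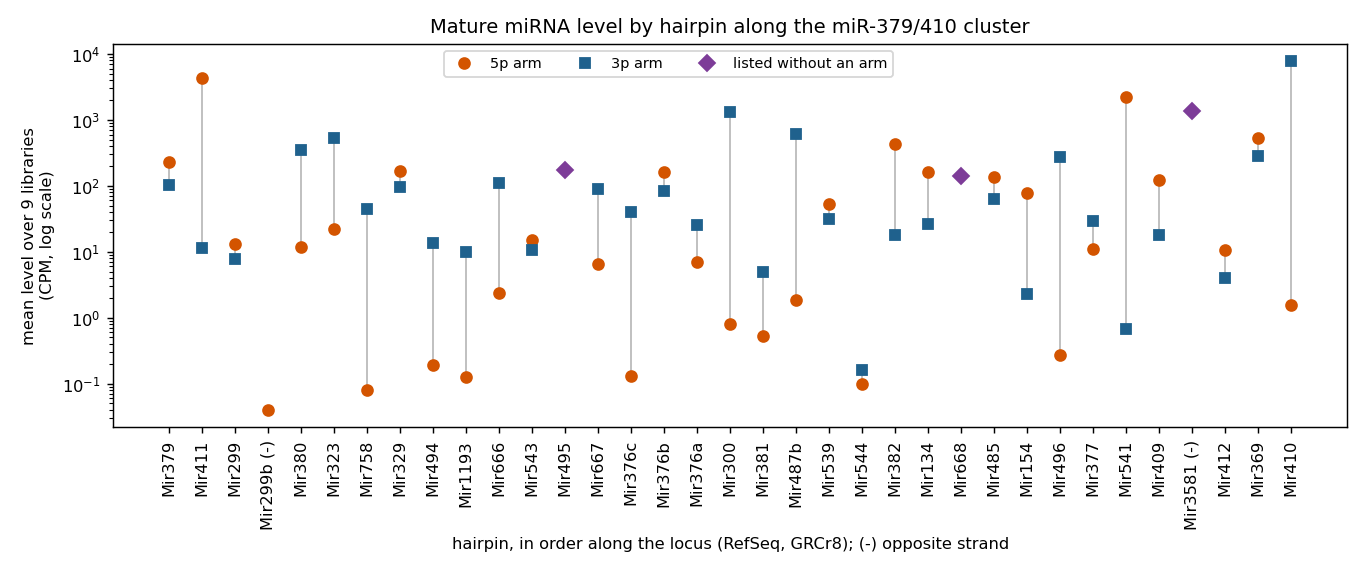
Mean level over the 9 libraries (CPM, log scale) of each of the 66 members, by hairpin in order along the locus; circles mark 5p arms, squares 3p arms and diamonds members listed without an arm, and a grey line joins the arms of a hairpin. The highest points are miR-410-3p (7720.3 CPM) at the right end and miR-411-5p (4361 CPM) in the second hairpin.

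Both arms were listed for 31 hairpins, and the larger arm was 5p in 15 and 3p in 16. miR-409a was counted as 5p (5p 121.0 and 3p 17.73 CPM), though the level of its 3p arm is uncertain without strand. The arms differed by more than 10-fold in 16 hairpins and by more than 100-fold in 8. The 4 most one-sided were miR-410 (3p, 4910.0-fold), miR-541 (5p, 3350.0-fold), miR-300 (3p, 1640.0-fold) and miR-496 (3p, 1020.0-fold). The value of miR-300 is uncertain, since it depends on how reads were assigned between miR-300-3p and miR-381-3p, 1 edit apart. In 7 hairpins the arms differed by less than 2-fold, among them miR-329 (5p 170.0 and 3p 95.3 CPM), miR-369 (522.5 and 282.2 CPM) and miR-376b (164.7 and 84.7 CPM). The arm named in studies of dendrites was the larger one for miR-134 (5p 163.7 and 3p 26.03 CPM) but not for miR-329, whose 3p arm is the one usually studied.

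The libraries differed in the level of the cluster as a whole, across group borders. Each tested member was set against its own mean over the 9 libraries, on the scale of log2 CPM after TMM scaling (an edgeR factor that balances library composition). In MK-801 replicate 3 only 12 of the 58 members lay above their mean and the median member lay at -0.13. In MK-801+CLO replicate 2 the count was 13 of 58 and the median -0.15. The highest libraries were MK-801+CLO replicate 1 (43 of 58, median 0.08), VEH replicate 2 (42 of 58, median 0.10) and MK-801 replicate 2 (41 of 58, median 0.07). In between lay MK-801 replicate 1 (35 of 58), VEH replicate 3 (33), VEH replicate 1 (30) and MK-801+CLO replicate 3 (25). Over all 469 tested miRNAs, 43.7% to 57.1% lay above their mean in a library. So each drug group held a high and a low library.

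The 23 other miRNAs of the Dlk1-Dio3 region, such as miR-127 and miR-434, stood low in the same 2 libraries and high in some of the same. Their medians were -0.10 in MK-801 replicate 3 and -0.16 in MK-801+CLO replicate 2, with 4 and 3 of 23 above their mean, and 0.10 in VEH replicate 2 and 0.07 in MK-801 replicate 2. Both other VEH libraries stood differently for the 2 lists. In VEH replicate 3 these miRNAs stood highest of all libraries, with 19 of 23 above and a median of 0.12 beside 0.03 for the cluster. In VEH replicate 1 they stood low, with 6 of 23 above and a median of -0.11 beside 0.00. These other miRNAs were more abundant, at 189290.0 ± 19830.0 CPM in VEH, 182190.0 ± 16190.0 in MK-801 and 178330.0 ± 15710.0 in MK-801+CLO (SD, n = 3 each, groups overlapping). Medians of the tested miRNAs outside the cluster stayed between -0.02 and 0.02 in every library. TMM scaling levels the bulk of the tested miRNAs between libraries, so these medians are largely set by the scaling.

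**Figure D2:**
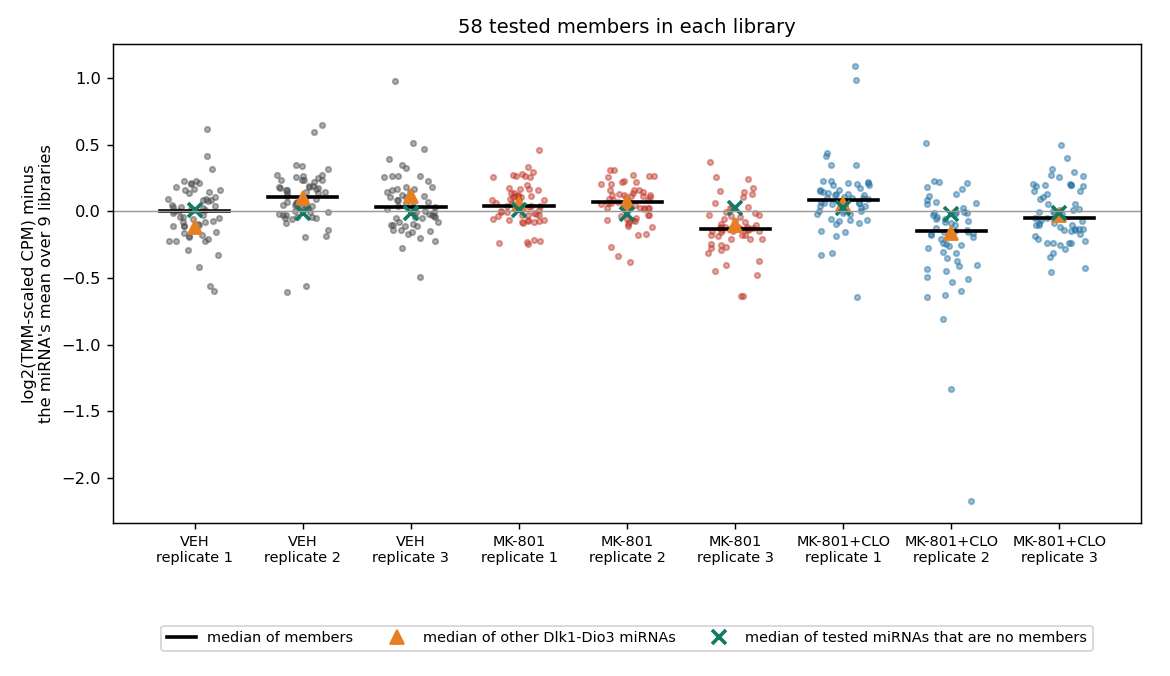
Each of the 58 tested members in each of the 9 libraries, as log2 CPM after TMM scaling minus the member's mean over the libraries (points); black bars are the members' median, triangles the median of the 23 other Dlk1-Dio3 miRNAs and crosses the median of tested miRNAs outside the cluster. The members' median lies lowest in MK-801 replicate 3 (-0.13) and MK-801+CLO replicate 2 (-0.15).

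The members were about as steady between libraries of a group as other miRNAs of like level. Among members at 10 CPM or more, the median within-group SD was 0.16 on the log2 scale (45 members), and among all tested miRNAs at that level it was also 0.16 (333 miRNAs). miR-541-5p varied little, with an SD of 0.05.

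The first comparison asked what remained of the MK-801 course after 7 days of saline. None of the 58 tested members differed between MK-801 and VEH after adjustment (edgeR quasi-likelihood test, Benjamini-Hochberg over 469 miRNAs, threshold 0.05; smallest adjusted p among members 0.588), and DESeq2 and limma voom also called 0. Over all tested miRNAs the called share was 0.0%. At an unadjusted p under 0.05 there were 2 members, miR-377-5p and miR-409b, both lower after MK-801, which is 3.45% of the members against 5.12% of all tested miRNAs (2.13% lower and 2.99% higher); DESeq2 gave 3 and limma voom 2. Of the members 21 were higher and 37 lower, with a median log2 fold change of -0.05 against -0.02 over all tested miRNAs; with upper-quartile scaling this turned to 36 higher and 22 lower, with medians of 0.04 and 0.07. Without MK-801 replicate 3 it was 30 higher, with a median of 0.01. Between the groups, 6 members lay wholly below VEH (10.3%, against 7.89% of all tested) and 1 wholly above (1.72%, against 5.97%).

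miR-377-5p is the less abundant arm of its hairpin. Its level was 12.2, 13.1 and 14.4 CPM in VEH, 10.49, 9.04 and 9.44 in MK-801 and 10.9, 9.38 and 9.44 CPM in MK-801+CLO. All 6 drug libraries lay below all 3 VEH libraries, and the drug groups overlapped. The log2 fold change was -0.43 ± 0.13 (SE; 95% interval -0.73 to -0.14) for MK-801 against VEH, at an unadjusted p of 0.00829 and an adjusted p of 0.588 (edgeR). For MK-801+CLO against VEH it was -0.36 ± 0.13, at an unadjusted p of 0.0227 and an adjusted p of 0.254 (edgeR). The other arm, miR-377-3p, overlapped between all groups, at 31.8, 31.9 and 28.9 CPM in VEH, 35.4, 28.8 and 28.4 in MK-801 and 30.6, 25.9 and 25.1 CPM in MK-801+CLO.

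miR-409b, whose reads cannot be told from those of miR-409a-3p without strand, stood at 1422, 1558 and 1721 CPM in VEH, 1117, 1335 and 1140.0 in MK-801 and 1319, 1439 and 1044 CPM in MK-801+CLO. The MK-801 libraries lay below the VEH libraries, and the MK-801+CLO libraries overlapped with both groups. Its log2 fold change for MK-801 against VEH was -0.37 ± 0.12 (95% interval -0.65 to -0.09), at an unadjusted p of 0.014 and an adjusted p of 0.599 (edgeR). Against VEH the difference of MK-801+CLO was -0.25 ± 0.12, at an unadjusted p of 0.0752 (edgeR), and it was -0.39 without MK-801+CLO replicate 2 and -0.16 without MK-801+CLO replicate 3. miR-409a-3p, the listed partner on the plus strand, overlapped between the groups, at 14.4 to 21.3 CPM in VEH, 13.6 to 22.7 in MK-801 and 14.0 to 19.5 in MK-801+CLO.

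miR-541-5p, the third most abundant member, was at 2467, 2567 and 2323 CPM in VEH, 2099, 2255 and 2092 in MK-801 and 2211, 2030.1 and 1983 CPM in MK-801+CLO. All drug libraries lay below all VEH libraries, by a small margin between VEH replicate 3 and MK-801 replicate 2. The log2 fold change was -0.17 ± 0.08 for MK-801 against VEH, at an unadjusted p of 0.0509, and -0.18 ± 0.08 for MK-801+CLO against VEH, at an unadjusted p of 0.0389 and an adjusted p of 0.288 (edgeR). With upper-quartile scaling the first of these was -0.08. The 2 comparisons share the VEH libraries.

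The second comparison asked what the clozapine course did after MK-801. None of the 58 members differed between MK-801+CLO and MK-801 after adjustment (edgeR, smallest adjusted p 0.519; DESeq2 and limma voom 0), nor did any other tested miRNA (0.0%). At an unadjusted p under 0.05 there was 1 member, 1.72% of the members against 8.32% of all tested miRNAs (3.62% lower), and 2 by DESeq2 and 2 by limma voom. With 27 members higher and 31 lower, the median was -0.01 against 0.00 for all tested miRNAs. Upper-quartile scaling shifted the median of all tested miRNAs to -0.12 and that of the members to the same value, with 12 members higher. Without MK-801+CLO replicate 2, the library in which the cluster stood lowest, 36 members were higher. Wholly below MK-801 lay 5 members (8.62%, against 6.82%) and wholly above lay 1 (1.72%, against 4.69%).

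The 1 member was miR-1193-3p, which was chosen for description after its values were seen, since its mean of 9.75 CPM is below the 10 CPM asked of named members. Its sequence, with the seed it shares with miR-370-5p in capitals, is given first.
miR-1193-3p: tAGGTCACccgttttactatcc
Its level was 10.1, 11.3 and 9.19 CPM in VEH, 11.4, 11.1 and 10.6 in MK-801 and 7.84, 8.53 and 7.75 CPM in MK-801+CLO. The MK-801+CLO libraries lay below all 6 others, while VEH and MK-801 overlapped. For MK-801+CLO against MK-801 the log2 fold change was -0.42 ± 0.13 (95% interval -0.71 to -0.13), at an unadjusted p of 0.00955 and an adjusted p of 0.519 (edgeR), and against VEH it was -0.28 ± 0.13. Replicate 2, the low MK-801+CLO library for most members, held the highest of the 3 values here.

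**Figure D3:**
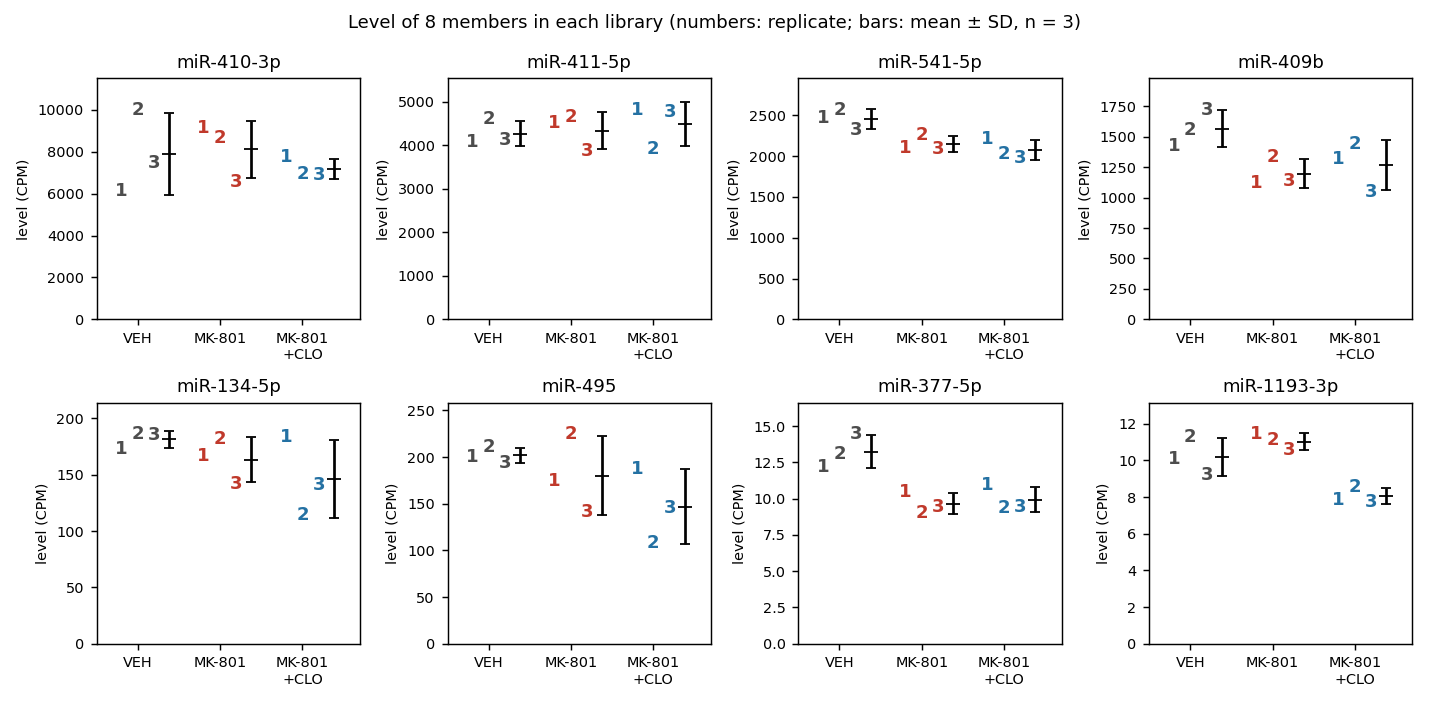
Level in CPM of 8 members in each library; the digits are replicate numbers and the bars give mean ± SD (n = 3). miR-377-5p and miR-541-5p lie lower in all 6 drug libraries than in VEH, miR-1193-3p lies lowest in MK-801+CLO, and miR-410-3p and miR-411-5p overlap between all groups.

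The third comparison set MK-801+CLO against VEH. Again none of the 58 members differed after adjustment (edgeR, smallest adjusted p 0.254; DESeq2 and limma voom 0), and the called share of all tested miRNAs was 0.0%. Unadjusted p-values under 0.05 were found for 2 members, miR-377-5p and miR-541-5p, which is 3.45% of the members against 14.9% of all tested miRNAs (7.46% lower), and for 3 members by DESeq2 and 3 by limma voom. The direction was less even than in the other comparisons, with 17 members higher and 41 lower (70.7% lower, against 49.9% of all tested) and a median of -0.09 against 0.00. Lower members were the majority under each scaling tried, with 12 to 17 of 58 higher. The 12 came with library totals, where 192 of all 469 tested miRNAs were higher. Lower members were also the majority without MK-801+CLO replicate 2, the low library, where the median was -0.04. The same held without VEH replicate 2, a high one, where it was -0.08. Members share 1 locus and are not replicates, so these counts are only a description. Wholly below VEH lay 10 members (17.2%, against 11.5%) and wholly above lay 1 (1.72%, against 5.97%).

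The size of differences that could have been missed was limited. Of the 45 tested members at 10 CPM or more, the 95% interval of the log2 fold change lay within 2-fold in either direction for 44 in MK-801 against VEH and for all 45 in each of the other 2 comparisons. It lay within 1.5-fold for 40, 37 and 35 of them, in the order of the comparisons.

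**Figure D4:**
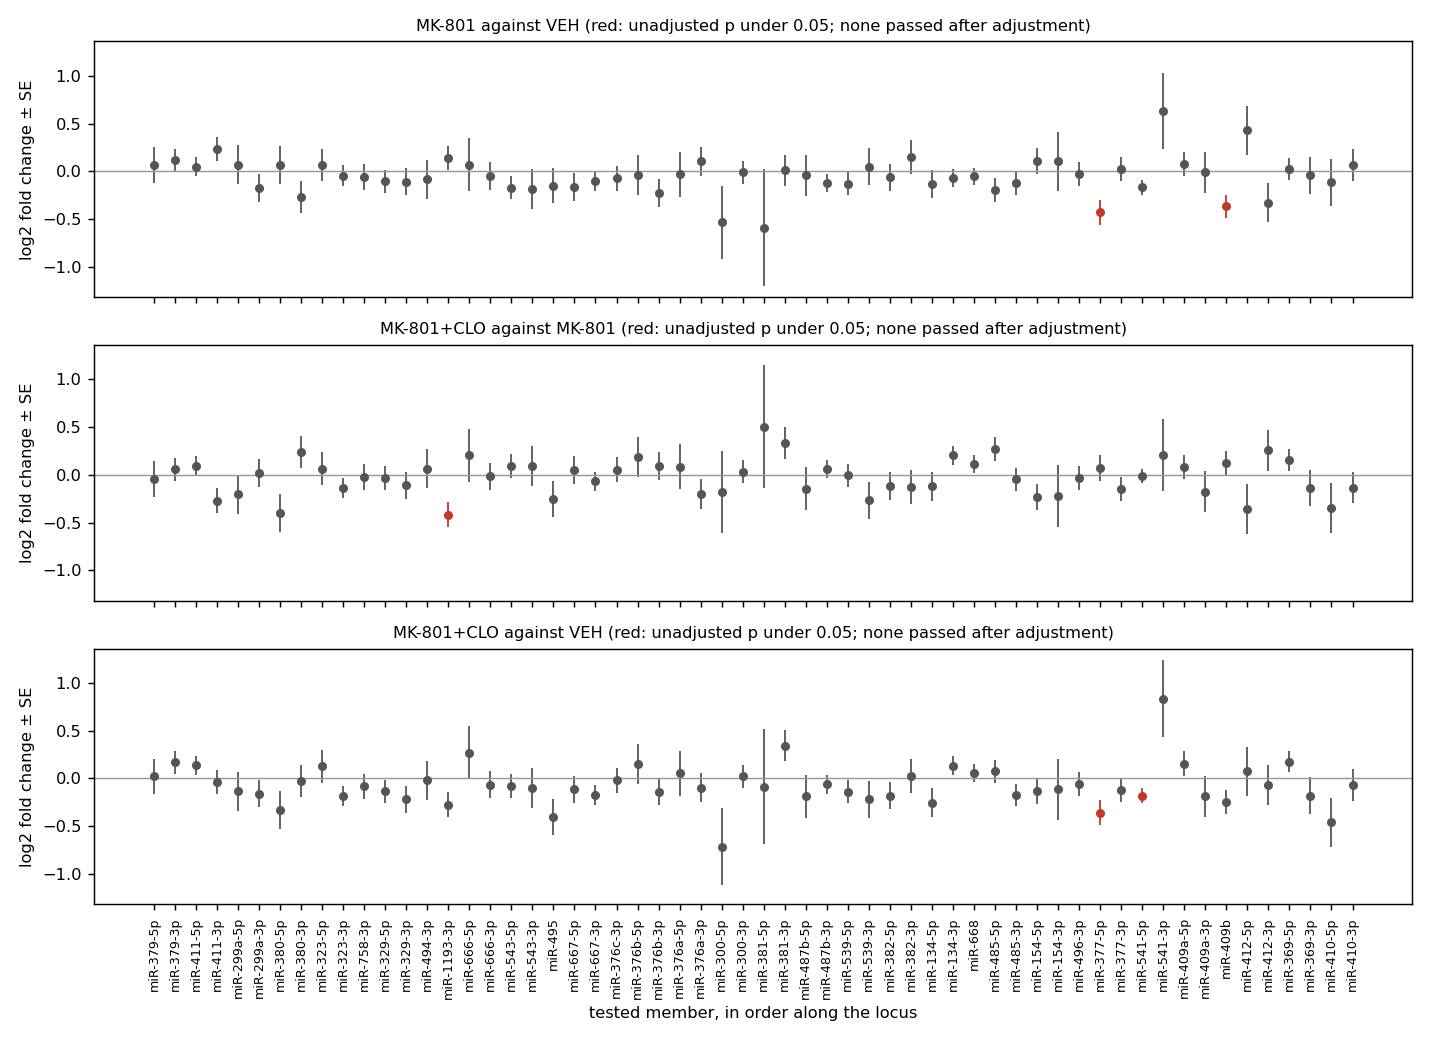
Log2 fold change (edgeR, ± SE) of the 58 tested members in order along the locus, one panel per comparison, with red for an unadjusted p under 0.05. Red points are miR-377-5p and miR-409b in MK-801 against VEH, miR-1193-3p in MK-801+CLO against MK-801, and miR-377-5p and miR-541-5p in MK-801+CLO against VEH; the widest bars belong to members near or below 1 CPM.

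The 2 most abundant members did not separate the groups. miR-410-3p stood at 6139.5, 9993 and 7479.6 CPM in VEH, 9111, 8672 and 6548 in MK-801, and 7721, 6953 and 6865 CPM in MK-801+CLO. VEH replicates 2 and 1 were the highest and the lowest of all libraries, so that VEH enclosed both drug groups. Log2 fold changes were 0.07 ± 0.16 in the first comparison, -0.14 ± 0.16 in the second and -0.07 ± 0.16 in the last; the first turned negative without VEH replicate 1 or MK-801 replicate 1 and the last turned positive without VEH replicate 2. Over all libraries left out in turn they ran from -0.10 to 0.27, -0.25 to -0.02 and -0.22 to 0.14; the second was lowest without MK-801 replicate 3 and highest without MK-801 replicate 1. For miR-411-5p the libraries were at 4060.4, 4593 and 4124 CPM in VEH, 4499.7, 4651 and 3854 in MK-801 and 4808, 3901 and 4754 CPM in MK-801+CLO, also overlapping. The corresponding changes were 0.05, 0.09 and 0.14 with an SE of 0.10. Leaving out 1 library moved them over -0.003 to 0.105, 0.025 to 0.173 and 0.052 to 0.20; the lowest values came without VEH replicate 1 in the first and without MK-801+CLO replicate 3 in the others, and the second turned to -0.025 with upper-quartile scaling.

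Among members known from neurons, miR-134-5p, which limits the size of dendritic spines through Limk1, and miR-495 were both low in MK-801 replicate 3 and MK-801+CLO replicate 2.
miR-134-5p: tGTGACTGgttgaccagagggg
miR-495: aAACAAACatggtgcacttctt
Levels of miR-134-5p were 173, 186 and 185 CPM in VEH, 167, 182 and 141.7 in MK-801 and 184, 114 and 140.5 CPM in MK-801+CLO. MK-801 replicate 3 and MK-801+CLO replicates 2 and 3 were low and the other 6 lay at 167 CPM or above, and the groups overlapped. Its log2 fold change for MK-801+CLO against VEH was -0.25 ± 0.15, and -0.42 without MK-801+CLO replicate 1 and -0.14 without MK-801+CLO replicate 2. Levels of miR-495 were 200.5, 210.6 and 194.1 CPM in VEH, 174.8, 224.4 and 140.8 in MK-801 and 187.5, 107.5 and 145.3 CPM in MK-801+CLO. Its MK-801+CLO libraries lay below VEH, with replicate 1 just below the lowest VEH library, and the difference was -0.40 ± 0.19 at an unadjusted p of 0.0586 and an adjusted p of 0.344 (edgeR). With 1 library left out it ran from -0.58 to -0.25, and it was -0.25 without MK-801+CLO replicate 2.

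miR-485-5p, which is known to act at synapses, had another pattern.
miR-485-5p: aGAGGCTGgccgtgatgaattc
It stood at 127.6, 164.9 and 128.2 CPM in VEH, 111.5, 137.9 and 112.0 in MK-801 and 143.6, 133.98 and 146.2 CPM in MK-801+CLO. The groups overlapped in each comparison, and the difference between MK-801+CLO and MK-801 was 0.27 ± 0.12 at an unadjusted p of 0.0507 (edgeR), and 0.16 with upper-quartile scaling. Some other members with described roles in neurons also overlapped between all groups: miR-329-3p ranged from 73.3 to 111.5 CPM, miR-376b-3p from 66.6 to 103.1 CPM, miR-379-5p from 184.3 to 308.8 CPM and miR-369-3p from 188.5 to 355.7 CPM. In miR-329-3p, miR-369-3p and miR-379-5p the lowest value belonged to MK-801+CLO replicate 2, and in miR-376b-3p to MK-801 replicate 3. Not all textbook members overlapped. miR-323-3p was at 524.4 to 646.9 CPM in VEH, 522.7 to 581.3 in MK-801 and 429.2 to 510.4 in MK-801+CLO, which lay below both. The log2 fold change of MK-801+CLO was -0.14 ± 0.11 against MK-801 and -0.18 ± 0.11 against VEH. Adjusted p-values were 0.726 and 0.458 (edgeR). In the other direction went miR-381-3p, at 4.10 to 5.01 CPM in VEH, 4.17 to 5.34 in MK-801 and 5.41 to 5.83 in MK-801+CLO. It was the only member whose MK-801+CLO libraries lay wholly above MK-801 or wholly above VEH. Its log2 fold changes were 0.33 ± 0.16 and 0.34 ± 0.16, at adjusted p-values of 0.604 and 0.344 (edgeR). Its counts depend on how reads were assigned between it and miR-300-3p.

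The balance of the arms within a hairpin does not depend on library scaling, and it was compared as log2 of 5p counts over 3p counts in the 14 hairpins with both arms at 10 CPM or more. The 5p arm was larger in 11 and the 3p arm in 3 (miR-380, miR-323 and miR-377), and in all 14 the larger arm was the same in every library. For miR-409a this rests on the listed level of its 3p arm, which is uncertain without strand. With 3 libraries a group an exact two-sided permutation test cannot go below 0.10, so no test was made. Group ranges did not overlap in 2 of 14 hairpins between MK-801 and VEH (14.3%, against 22.9% of the 83 such hairpins of the whole table), in 4 of 14 between the drug groups (28.6%, against 14.5%) and in 4 of 14 between MK-801+CLO and VEH (28.6%, against 18.1%).

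miR-377 was the hairpin whose groups lay apart in all 3 comparisons. Its log2 balance was -1.39, -1.28 and -1.003 in VEH, -1.75, -1.67 and -1.59 in MK-801 and -1.49, -1.47 and -1.41 in MK-801+CLO. VEH was highest, MK-801 lowest and MK-801+CLO between them, and the gap between VEH and MK-801+CLO was only that between -1.39 and -1.41. Group means were -1.22 ± 0.20, -1.67 ± 0.08 and -1.45 ± 0.04 (SD, n = 3 each). The 5p arm enters this ratio with about 11 CPM, so it rests on 100 to 264 counts of that arm in a library.

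Other hairpins lay apart in 1 or 2 comparisons. For miR-411 the balance was 8.58 ± 0.12 in VEH, 8.40 ± 0.21 in MK-801 and 8.76 ± 0.04 in MK-801+CLO, with MK-801+CLO above both. For miR-134 it was 2.80 ± 0.10, 2.73 ± 0.09 and 2.39 ± 0.27 in the same order, with MK-801+CLO overlapping MK-801 and just below VEH. The balance of miR-369 was 0.76 ± 0.04, 0.83 ± 0.24 and 1.136 ± 0.264, with MK-801+CLO above VEH. miR-485 and miR-380 lay apart between MK-801+CLO and MK-801, and miR-376b between MK-801 and VEH. The remaining 7 hairpins, miR-379 and miR-329 among them, overlapped in every comparison. The smaller arms of miR-411 (3p, 11.45 CPM) and miR-380 (5p, 11.89 CPM) hold 99 to 236 and 85 to 249 counts in a library, about as in miR-377. miR-411-3p is also 1 edit from the more abundant miR-379-3p (101.93 CPM).

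**Figure D5:**
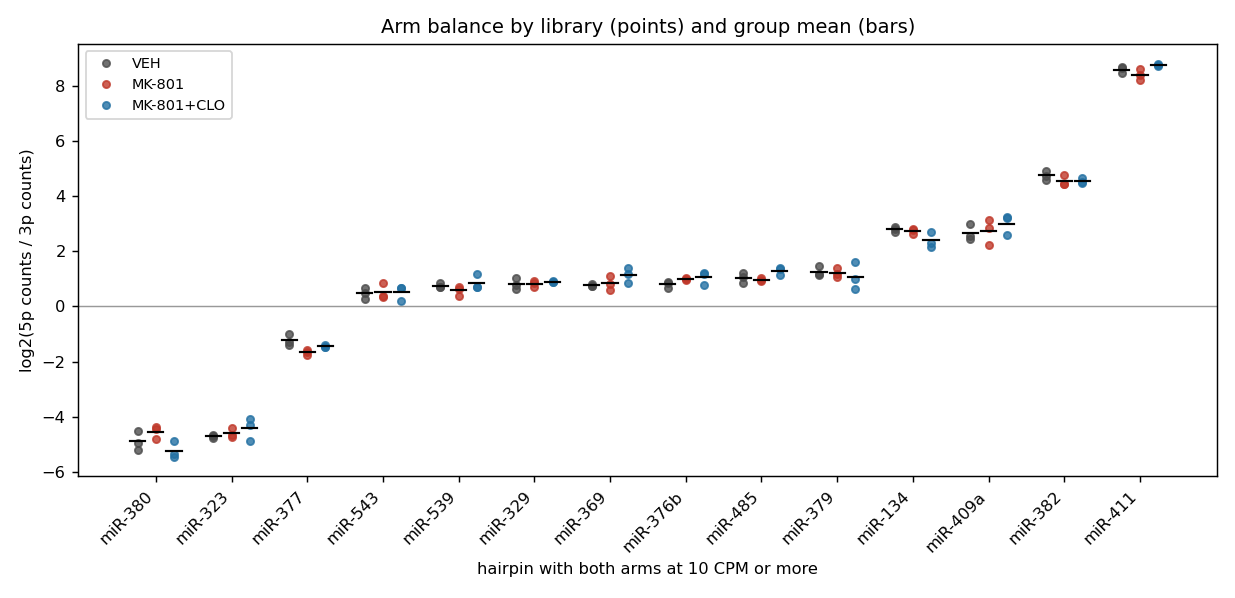
Log2 of 5p over 3p counts in each library (points) and as group mean (bars) for the 14 hairpins with both arms at 10 CPM or more, from the most 3p-sided (miR-380) to the most 5p-sided (miR-411). The sign is the same in all 9 libraries for each hairpin, and in miR-377 MK-801 lies below MK-801+CLO and MK-801+CLO below VEH.

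Other miRNA groups are given beside these values. The 23 other Dlk1-Dio3 miRNAs had median log2 fold changes of -0.05, -0.07 and -0.06 in the 3 comparisons, with 17, 16 and 16 of 23 lower and 0 called. A list of 14 miRNAs drawn up for neuronal activity, with miR-132, also holds the 5 neuronal markers and the oligodendrocyte marker miR-219a-5p. It is thus not a set for activity alone. Of the 14, 12 were higher in MK-801+CLO than in VEH (median 0.20, against 50.1% and 0.003 over all tested miRNAs). In MK-801+CLO against MK-801, 10 were higher (median 0.14, against 48.8% higher over all tested). In MK-801 against VEH, 7 were higher (median 0.02, against 46.5%), and 0 were called in any comparison. The 7 choroid plexus and ependyma markers summed to 3984 to 12394 CPM in VEH, 3647 to 4495 in MK-801 and 2562 to 3855 CPM in MK-801+CLO. The highest value was that of VEH replicate 3. Against VEH, 7 of 7 were lower in MK-801 (53.5% of all tested miRNAs were lower). In MK-801+CLO against VEH, 6 of 7 were lower (49.9% of all tested), and 0 were called in either. The 4 endothelial and smooth muscle markers summed to 21837 to 25137 CPM in VEH, 22711 to 24163 in MK-801 and 25681 to 30246 CPM in MK-801+CLO, and none of these markers was at 0. The part of such markers in the members' values was not tested.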

How the data were processed

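Small RNA of rat hippocampus was sequenced in 9 libraries, and the deposited table lists a count and a CPM value per mature miRNA, with its sequence. The submitters' processing notes name Bowtie, cutadapt 1.14, Rnor_6.0 and DESeq; the handling of strand and of reads with several matches was not given in the sources used. The column the authors head TPM is CPM: it equals the deposited count over the library total times 1000000 (largest difference 0.000473%). 1 miRNA name split over lines was rejoined and 21 blank lines were dropped.

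Counts were tested with edgeR 4.0.16 (R 4.3.3; quasi-likelihood, TMM factors, filterByExpr, all 9 libraries) over 469 miRNAs, with Benjamini-Hochberg adjustment; limma 3.58.1 (voom) and DESeq2 1.42.0 were alternatives. The scripts were tested on simulated data. The members, marker lists and naming rule were chosen with earlier results of these data known. Members were named where they were among the 15 most abundant, at an unadjusted p under 0.05 with at least 10 CPM, textbook members, seed sharers or extremes of arm balance. Sequences and places come from RefSeq (GRCr8), which matched all 66 members and 21 of the 23 other region miRNAs; no coordinates of Rnor_6.0 were used. Groups and replicate numbers come from the sample titles, which do not say whether these numbers pair the samples. The main fit took the samples as unpaired. Arm balance and list medians were given without a test.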

Additional observations from a re-analysis of the deposited data

How the results depend on the processing

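The count of members called stayed at 0 in each comparison under all 19 alternatives. Counts of members at an unadjusted p under 0.05 moved. The share of all tested miRNAs under each alternative is not given here, so these counts are no result about the cluster. For MK-801+CLO against MK-801 the 1 member became 3 with RLE factors, 7 with upper-quartile factors, and 2 each with library totals, a minimum of 10 CPM, DESeq2, limma voom, robust dispersion or only the 6 libraries compared. For MK-801+CLO against VEH the 2 members became 5 with library totals. With the replicate block these counts were 3, 2 and 1 (main 2, 1 and 2), in the order of the report. The sample titles do not say whether the replicate numbers pair the libraries. Deviations of same-numbered libraries correlated at -0.59 to 0.31, and 2 of 9 libraries correlated best with their own number. With 3 libraries a group these values cannot decide it. Leaving out 1 library gave 2 to 4, 1 to 5 and 1 to 6 members. The 4 were found without VEH replicate 1; in the second comparison 5 were found without MK-801+CLO replicate 1, 4 without MK-801 replicate 2 and 2 without any of the other libraries except VEH replicate 3 and MK-801 replicate 3, which gave 1; in the last 6 were found without MK-801+CLO replicate 1, 5 without MK-801+CLO replicate 2 and 1 without MK-801 replicate 1. Medians were then -0.10 to 0.01, -0.07 to 0.03 and -0.15 to -0.04, and with upper-quartile factors the first was 0.044. Signs turned for miR-541-5p in MK-801+CLO against MK-801 (0.005 with RLE factors and 0.005 with DESeq2; -0.035 to 0.002 without 1 library), and there for miR-377-5p (-0.043 with upper-quartile factors; -0.007 to 0.152), miR-411-5p (-0.025 with upper-quartile factors) and miR-134-5p (-0.291 to 0.011). Without 1 library miR-410-3p ran from -0.10 to 0.27 and miR-411-5p from -0.003 to 0.105 in MK-801 against VEH, and miR-410-3p from -0.22 to 0.14 in MK-801+CLO against VEH. Hairpins apart in arm balance were 3 to 4, 4 to 9 and 4 to 8 of 14 (2, 4 and 4 with all libraries), since fewer libraries overlap less. The matching counts over all such hairpins of the whole table are not given here, so these are no result about the cluster. Without the 3 most abundant members the summed levels were 8543.5 CPM in VEH, 7821.7 in MK-801 and 7734.2 in MK-801+CLO, the same order. miR-1193-3p has no value under a minimum of 10 CPM. Library totals in place of TMM factors, chosen after seeing the data, left 9 of 58 members above their mean in MK-801 replicate 3 and 12 in MK-801+CLO replicate 2. The causes of these moves were not tested. Depth limits members under 1 CPM, where a library holds few counts.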

Other observations

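Inside the span of the cluster RefSeq places 73 mature miRNAs, 7 of which are no members by number, and 2 of these are in the deposited table. miR-3579, almost the reverse complement of miR-380-5p (1 edit), had at most 2 counts in a library. miR-6331 had a mean of 167.6 CPM, about the level of miR-329-5p and miR-134-5p. Its level was 185.2 ± 9.96 CPM in VEH, 167.8 ± 17.9 in MK-801 and 149.7 ± 17.1 in MK-801+CLO (SD, n = 3 each), and the MK-801+CLO libraries (136.3 to 169.0 CPM) lay below the VEH libraries (174.5 to 194.2 CPM). The log2 fold change for MK-801+CLO against VEH was -0.25 ± 0.11, at an unadjusted p of 0.0432 and an adjusted p of 0.307 (edgeR quasi-likelihood test), so it did not pass.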
